A study of Homo sapiens with 12 samples.

Results

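Keratins are the intermediate filament proteins of epithelial cells. A keratin filament is built from pairs of an acidic type I and a basic type II keratin, and which pairs a cell makes is used to tell epithelia apart. KRT8 (type II) and KRT18 (type I) form the filaments of simple epithelia, and KRT7 (type II) and KRT19 (type I) are added in bile duct cells, whose tumors are recognized by them. KRT5 (type II), KRT15 and KRT17 (both type I) belong to basal, stem or stressed layers of stratified epithelia. KRT81 (type II) is a keratin of hair fibers, KRT80 (type II) is found at cell margins in many epithelia, and KRT23 (type I) is known from several carcinomas. Described here are these 10 keratin genes, taken by symbol from a list drawn up with earlier results of these data known, out of 54 type I and type II keratin genes and 18798 rows of a table of expression in intrahepatic cholangiocarcinoma (ICC), a cancer of the bile ducts within the liver.

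HuH-28, RBE and SSP-25 are established ICC lines. Their RNA was sequenced 48 h after transfection with 45 pmol per well of an siRNA against LKB1 (LKB1 siRNA) or of a scrambled siRNA (control siRNA). Line and siRNA together make 6 groups with 2 libraries each. The study numbers the libraries of a group as tests 1 and 2, and no source states that these were separate cultures, so p-values here reflect the spread among libraries, which may be technical. LKB1, a kinase that acts on AMPK and related kinases, is the product of STK11.

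The values are the authors' normalized reads per kilobase, called signal below, so that levels of different genes are compared per unit of transcript length. Library totals of signal lay between 9909644 and 11726703, and the read depth is unknown because read counts were not used here. STK11 signal averaged 215 ± 11.4 with LKB1 siRNA against 649 ± 69.0 with control siRNA in HuH-28 cells, 143 ± 18.2 against 457 ± 39.0 in RBE cells, and 67.3 ± 7.80 against 462 ± 2.92 in SSP-25 cells (SD, n = 2 each). The 12 biliary epithelial markers include KRT7 and KRT19, so their sums are not separate from the keratins. EPCAM, another of the 12, stood below 1 in both LKB1 siRNA libraries of HuH-28. The summed signal of the list was 5313 to 5899 with LKB1 siRNA and 4750.4 to 5104 with control siRNA there. In RBE the sums were 32699 to 32853 with LKB1 siRNA and 33952 to 35386 with control siRNA. In SSP-25 cells they were 20893 to 21208 with LKB1 siRNA and 17766 to 17829 with control siRNA. KRT7 alone averaged 2948 with LKB1 siRNA against 2437 with control siRNA in HuH-28, 14449 against 14717 in RBE, and 8817 against 5904 in SSP-25. HuH-28 also carried the fibroblast genes COL3A1, DCN and LUM, with mean control signals of 26085, 2499 and 2374. Neither list ran one way. In controls, 9 of the 12 biliary markers were lower in HuH-28 than in RBE and 3 were higher, among them MUC1 (205 in HuH-28 cells, against 36.2 in RBE and 29.5 in SSP-25 cells), and 10 of the 12 mesenchymal markers were higher and 1, VIM, was lower. The summed signal of HuH-28 over 12 mesenchymal markers was 115807 to 117158 with LKB1 siRNA and 109080.0 to 112755 with control siRNA. In RBE the sums were 31263 to 32257 with LKB1 siRNA and 48102 to 49626 with control siRNA. In SSP-25 cells they were 61624 to 62463 and 69572 to 70404. VIM alone had mean control signals of 46039 in RBE and 57502 in SSP-25 cells.

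Signals were fitted with limma as log2(signal + 0.5), a scale that understates changes of low genes. A gene passed at a Benjamini-Hochberg adjusted p under 0.05 over the 16146 genes with 2 or more libraries at a signal of 1 or above. All 10 keratins were among the genes tested, as were 37 of the 54. With 2 libraries in each group, an exact two-sided p cannot go below 0.33, and tests within a line rest on the spread pooled over the 6 groups. In bulk RNA, a change in the share of cells that express a keratin and a change in keratin mRNA per cell cannot be told apart.

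Keratin genes are close relatives, and short reads cannot always be assigned to one of them. The type II genes and KRT18 lie in one cluster on chromosome 12, and the other type I genes lie on chromosome 17. In GENCODE v29 (GRCh38), the biliary keratins are KRT7 (chromosome 12, 52232520 to 52252186, forward strand) and KRT19 (chromosome 17, 41523617 to 41528308, reverse strand). KRT8 (52897187 to 52949954, reverse) and KRT18 (52948871 to 52952901, forward) overlap at their ends on chromosome 12, KRT80 lies there from 52168996 to 52192000 (reverse), and KRT17 lies on chromosome 17 from 41619441 to 41624842 (reverse). KRT81 spans chromosome 12 from 52285913 to 52291534 on the reverse strand, within KRT86 (52249300 to 52309163) on the forward strand, and KRT83 follows from 52314301 to 52321398 on the reverse strand. The aligned coding sequences of KRT81 and KRT83 were identical at 93.4% of bases and those of KRT81 and KRT86 at 93.6%. The stretches below are shown because KRT81 had the widest response of the 10 keratins and these neighbors are its close copies. The first, coding bases 760 to 819 of KRT81, is the same in all 3 genes, and a read of 40 bases drawn from it cannot tell them apart. The other 3 lines are the ungapped stretch of the same length at which the genes differ most (coding bases 1249 to 1308 of KRT81 and KRT86 and 1264 to 1323 of KRT83), with capitals at the 16 positions where the 3 are not all alike.
KRT81, KRT83 and KRT86: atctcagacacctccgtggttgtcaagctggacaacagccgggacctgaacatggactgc
KRT81: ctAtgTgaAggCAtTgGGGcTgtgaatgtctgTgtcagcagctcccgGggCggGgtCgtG
KRT83: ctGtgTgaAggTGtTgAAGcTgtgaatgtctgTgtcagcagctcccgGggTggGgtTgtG
KRT86: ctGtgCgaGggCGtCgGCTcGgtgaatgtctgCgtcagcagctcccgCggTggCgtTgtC

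The study's reads were 40 bases long, and the windows of that length that a keratin mRNA shares with the transcripts of any other annotated gene were counted on either strand. KRT18 shared 55.6% of its windows, KRT81 48.9% and KRT8 40.9%, followed by KRT17 at 24.5%, KRT7 at 12.1%, KRT23 at 6.0%, KRT5 at 5.3% and KRT19 at 4.2%. KRT15 (0.8%) and KRT80 (0.7%) were nearly free of shared windows. For KRT8 and KRT18 most shared windows lay in pseudogenes (40.2% and 46.4% of all windows), and for KRT81 most lay in other keratin genes, above all KRT86 (40.8%). KRT8 and KRT18 also overlap on opposite strands, and KRT7 overlaps KRT86 and an antisense gene. How reads that match several genes were assigned is not stated in the labels or the study's methods, so the values of KRT8, KRT18, KRT17 and KRT81 are uncertain to that extent.

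**Figure D1:**
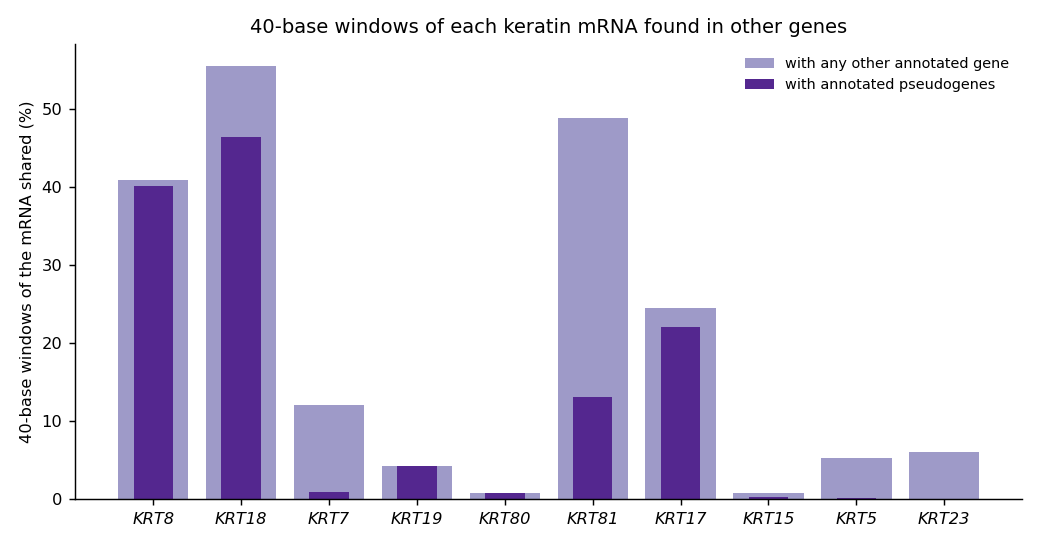
Share of the 40-base windows of each keratin mRNA (y axis, percent) found in the transcripts of another annotated gene (wide bars) and of annotated pseudogenes (narrow bars) in GENCODE v29. KRT18, KRT81 and KRT8 stand above 40%, and KRT15 and KRT80 below 1%.

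The 3 lines had different keratin profiles. In control siRNA libraries, the contrast of HuH-28 with RBE passed for 9 of the 10 keratins (77.3% of all genes tested passed), that of HuH-28 with SSP-25 for 8 (74.8% of all genes) and that of RBE with SSP-25 for 8 (73.1% of all genes). Most genes thus differed between lines, and the counts of keratins are to be read against that. RBE held the most keratin. The summed signal of the 54 keratins made up 0.131% and 0.130% of the control libraries of HuH-28, 0.580% and 0.553% of those of RBE, and 0.147% and 0.149% of those of SSP-25. The 10 genes described here carried 93.4% to 97.6% of the keratin signal of a library.

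**Figure D2:**
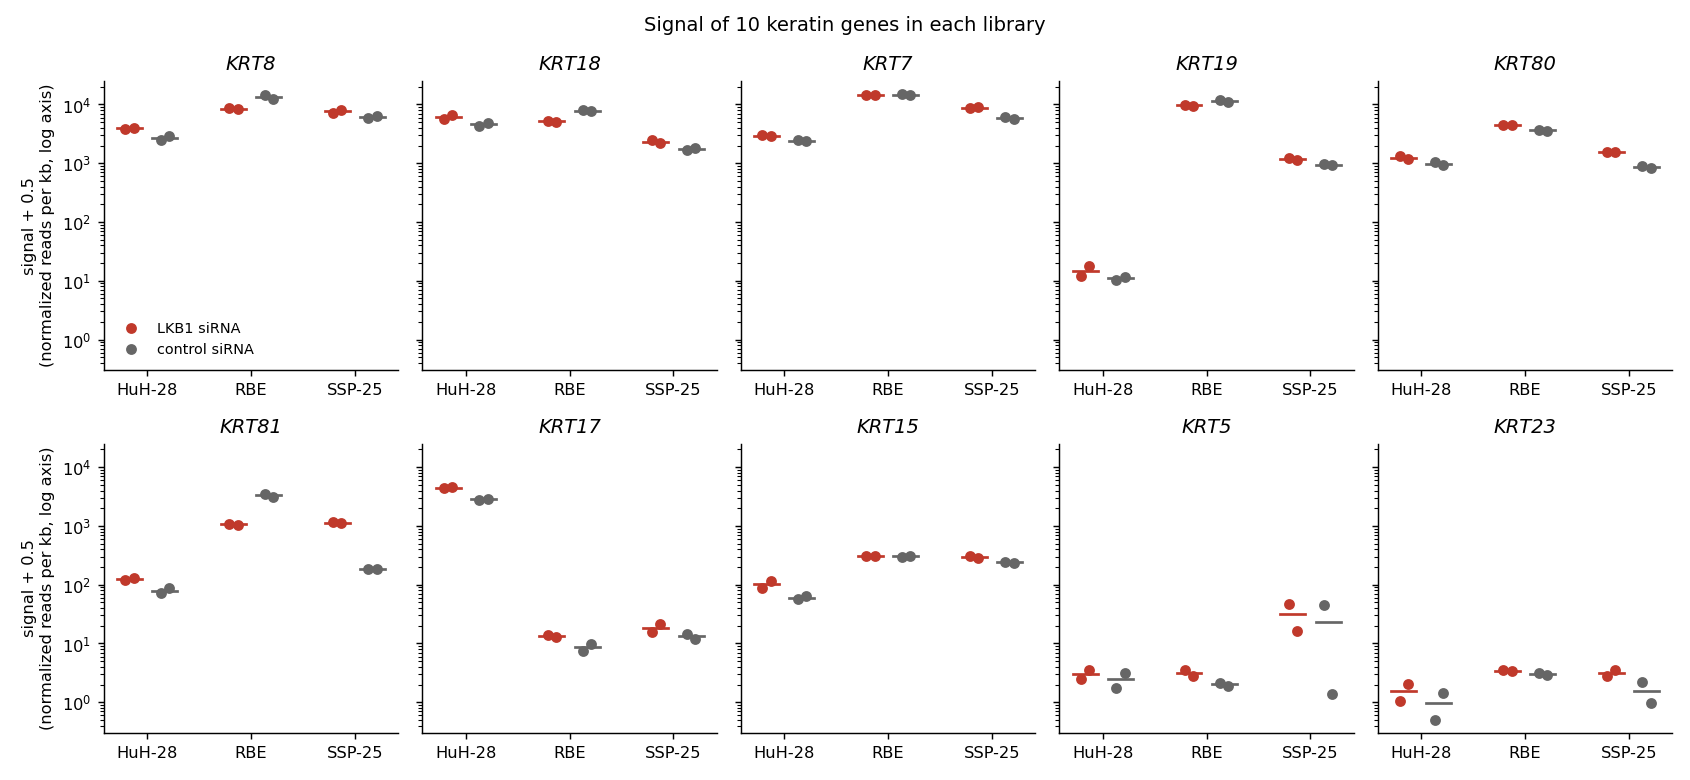
Signal + 0.5 (log axis, normalized reads per kilobase) of the 10 keratins in each library, by line, with LKB1 siRNA (red) left of control siRNA (grey). Points are libraries and lines are means of 2. KRT19 was lowest in HuH-28 and highest in RBE cells, KRT17 was far higher in HuH-28 than elsewhere, and the order of the siRNA groups for KRT81 was opposite in RBE and SSP-25.

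The biliary keratins separated HuH-28 from the other lines. KRT19 had signals of 9.86 and 11.0 in HuH-28 controls, 11826 and 11079.8 in RBE controls, and 964 and 916 in SSP-25 controls. No control library overlapped one of another line. The log2 difference was -10.03 for HuH-28 minus RBE (standard error 0.14, adjusted p = 4.77e-12), -6.43 for HuH-28 minus SSP-25 (adjusted p = 1.61e-10) and 3.61 for RBE minus SSP-25 (adjusted p = 7.10e-09, limma). KRT7 followed the same order over a narrower range. Its control signals were 2467 and 2406 in HuH-28 cells, 14978 and 14456 in RBE cells, and 6048 and 5759 in SSP-25 cells. KRT7 was therefore abundant in all lines, including the one with little KRT19, and all 3 differences passed (log2 differences of -2.59, -1.28 and 1.32 in the order above). KRT7 signal per unit of KRT19 signal was 250.3 and 218 in HuH-28 controls, 1.27 and 1.30 in RBE controls, and 6.27 and 6.29 in SSP-25 controls.

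The simple epithelial pair was abundant everywhere, in different proportions. KRT8 averaged 2680 ± 256 in HuH-28 cells, 13560 ± 1371 in RBE and 6218 ± 348 in SSP-25 cells, and KRT18 averaged 4575 ± 429, 7818 ± 160.0 and 1751 ± 71.3 in the same lines (control siRNA, SD, n = 2 each). Each of these 6 differences passed. KRT18 was the more abundant of the pair per kilobase in HuH-28 and KRT8 in RBE and SSP-25. KRT8 signal per unit of KRT18 was 0.585 and 0.586 in HuH-28 controls, 1.83 and 1.63 in RBE controls and 3.51 and 3.59 in SSP-25 controls. Summed over all keratins, type II signal per unit of type I signal was 0.794 and 0.756 in HuH-28 controls, 1.89 and 1.82 in RBE controls and 3.70 in both SSP-25 controls.

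KRT17, a type I keratin of basal and wounded epithelium, had the reverse order of lines. It stood at 2790 and 2889 in HuH-28 controls, 6.88 and 9.33 in RBE controls, and 13.8 and 11.5 in SSP-25 controls. HuH-28 libraries were thus above all others, with a log2 difference of 8.38 to RBE (adjusted p = 4.35e-11) and 7.76 to SSP-25 (adjusted p = 1.50e-10). RBE and SSP-25 were close to each other (-0.62, adjusted p = 0.0080), a difference no longer past the threshold without RBE control replicate 1 (0.074) or SSP-25 control replicate 1 (0.064). KRT17 made up 20.1% and 19.5% of the keratin signal of HuH-28 controls, the place that KRT19 held in RBE controls (20.1% and 20.2%). Of the type I keratins outside the 10, KRT14 (92.7 ± 22.3), KRT16 (59.0 ± 7.40) and KRT33B (31.3 ± 8.57) were likewise higher in HuH-28 controls than in those of both other lines, and KRT14 and KRT16, partners of the basal and wound keratins, were below 8 in every control library of RBE and SSP-25. Reads of KRT14, KRT16 and KRT17 are partly shared. KRT34, a hair keratin, was highest in SSP-25 cells (47.8 ± 7.89, against 16.9 ± 3.94 in HuH-28 cells).

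KRT80, KRT81 and KRT15 were highest in RBE cells. KRT80 averaged 986 ± 66.4 in HuH-28 cells, 3637 ± 89.8 in RBE and 871 ± 58.6 in SSP-25 cells. Its difference between HuH-28 and SSP-25 was 0.18 on the log2 scale (adjusted p = 0.039) and was lost when any of 8 single libraries was left out, with adjusted p of 0.052 to 0.26. KRT81 averaged 79.1 ± 9.62 in HuH-28 cells, 3354 ± 278 in RBE and 185 ± 2.35 in SSP-25 cells, and all 3 differences passed. KRT15, a stem-cell keratin of stratified epithelium, averaged 59.8 ± 5.74 in HuH-28 cells, 303 ± 3.97 in RBE and 241 ± 4.05 in SSP-25 cells. HuH-28 was below both other lines, while the difference of 0.33 between RBE and SSP-25 (adjusted p = 0.023) was lost without any one of the 4 control libraries of those lines (adjusted p of 0.065 to 0.090).

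KRT23 and KRT5 were low. KRT23 ranged over all 12 libraries between 0.00287 and 3.02, and passed for HuH-28 minus RBE only (-1.85, adjusted p = 0.012), which was lost without HuH-28 control replicate 1 (-1.10, adjusted p = 0.11) or RBE control replicate 1 (adjusted p = 0.051). KRT5, the type II keratin of basal cells, lay between 1.22 and 3.10 in HuH-28 and RBE. In SSP-25 it was 46.5 and 15.6 with LKB1 siRNA, against 44.0 and 0.873 with control siRNA, so the libraries of one group differed more than the groups did. TP63, the transcription factor that defines basal cells, had a mean below 1 in all 6 groups.

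**Figure D3:**
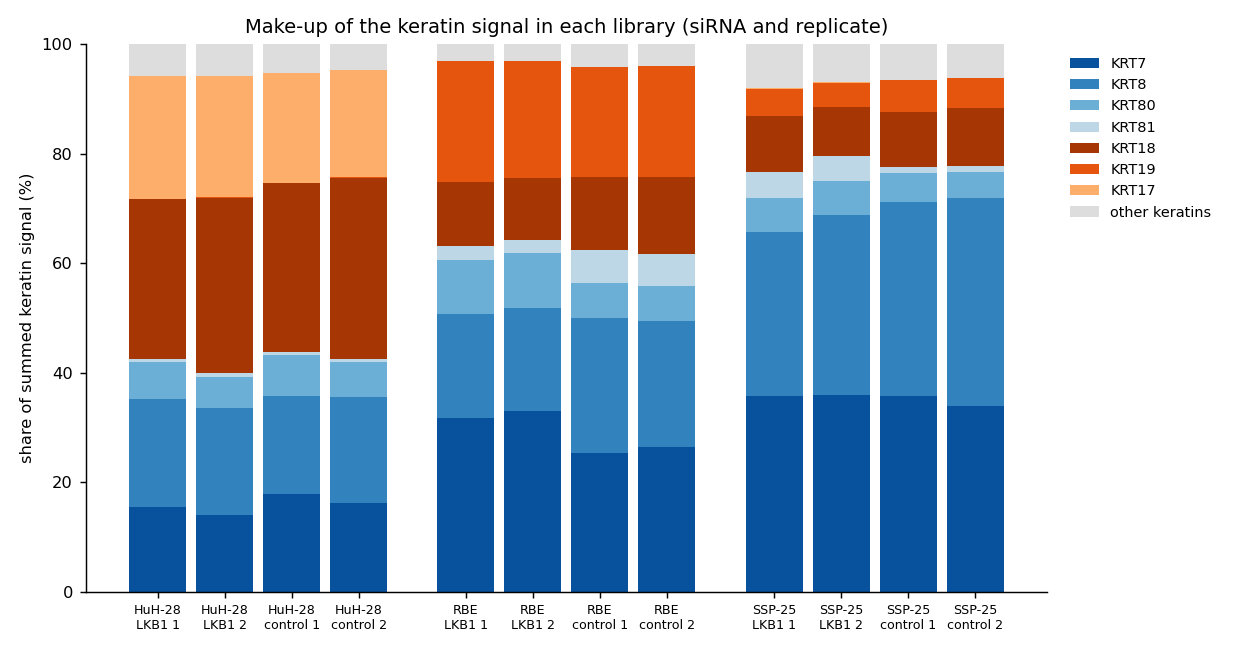
Make-up of the keratin signal of each library (y axis, percent of the summed signal of 54 keratins), with type II keratins in blue and type I in orange. KRT17 took 19.5% to 22.5% in HuH-28 and under 0.1% elsewhere, KRT19 took 20.1% to 22.1% in RBE cells, and KRT81 took a smaller share with LKB1 siRNA in RBE and a larger one in SSP-25 cells.

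With LKB1 siRNA, more of the keratins rose than fell in HuH-28 and SSP-25, and in RBE cells they were divided. In HuH-28, 7 of the 10 rose and 0 fell (14.3% of all genes tested rose and 15.5% fell), namely KRT7, KRT8, KRT15, KRT17, KRT18, KRT80 and KRT81. When HuH-28 was fitted alone, KRT7, KRT18 and KRT80 were lost (adjusted p of 0.062 to 0.077). In RBE, KRT17 and KRT80 rose (22.1% of all genes rose) and KRT8, KRT18 and KRT81 fell (18.6% of all genes fell). In SSP-25, 6 rose and 0 fell (21.1% of all genes rose and 21.1% fell), namely KRT7, KRT8, KRT17, KRT18, KRT80 and KRT81. The median log2 fold change of the 10 was 0.49 in HuH-28 cells, -0.00 in RBE and 0.53 in SSP-25 cells, beside medians over all genes of 0.01, 0.01 and 0.02. Summed over 54 keratins, keratin signal was 0.178% and 0.174% of the library with LKB1 siRNA against 0.131% and 0.130% with control siRNA in HuH-28 cells. In RBE it was 0.440% and 0.434% with LKB1 siRNA against 0.580% and 0.553% with control siRNA, and in SSP-25 cells 0.221% and 0.229% against 0.147% and 0.149%. The siRNA groups did not overlap in any line, and the order in RBE cells was opposite to that in the other lines.

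An F test asked whether the response was the same in the 3 lines. It passed for 6 of the 10 keratins, KRT7, KRT8, KRT15, KRT18, KRT80 and KRT81 (28.2% of all genes passed). Without RBE, only KRT80 and KRT81 did. On average over the lines, KRT7, KRT15, KRT17, KRT80 and KRT81 rose and 0 fell (27.3% of all genes rose and 25.2% fell). Since the responses of KRT81 had opposite signs in RBE and SSP-25, its average log2 fold change of 0.54 lies between opposite changes, and it was -0.50 without SSP-25.

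**Figure D4:**
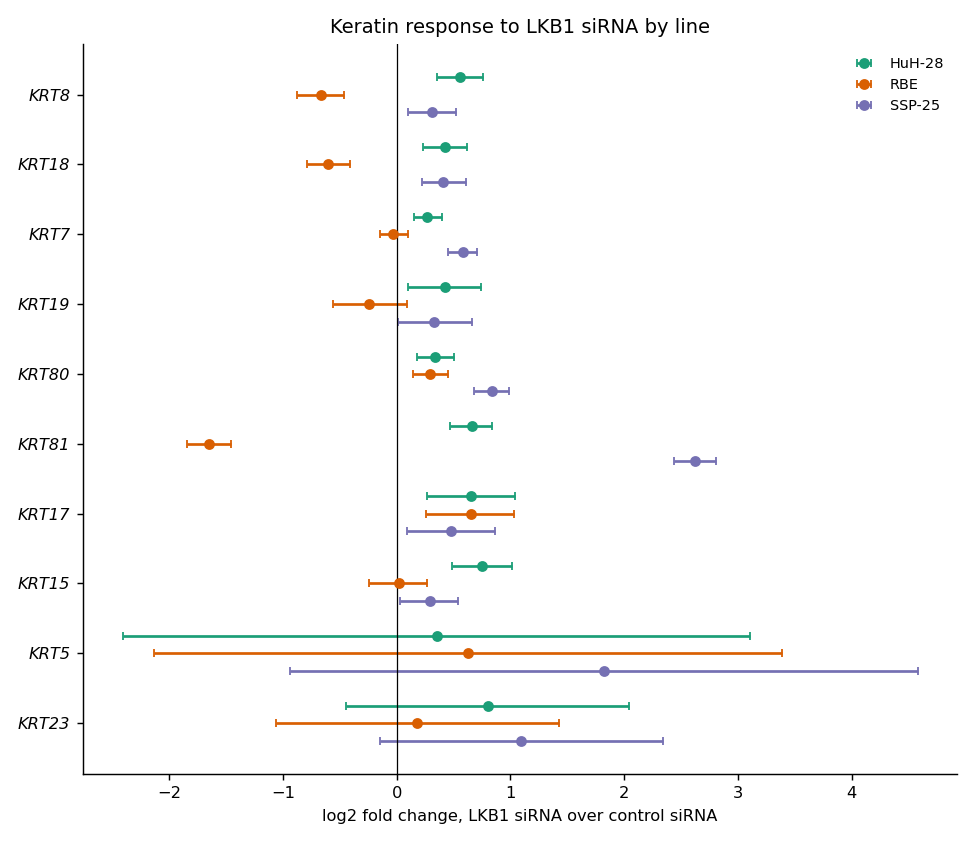
Log2 fold change of LKB1 siRNA over control siRNA (x axis) of the 10 keratins in each line, with 95% confidence intervals from limma. In RBE, KRT8, KRT18 and KRT81 lie below 0, while in HuH-28 and SSP-25 they lie above it. The intervals of KRT5 and KRT23 are wide and include 0.

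KRT81 had the widest response. Its signal was 1159 and 1125 with LKB1 siRNA against 186 and 183 with control siRNA in SSP-25 cells, and 1090.4 and 1046 against 3551 and 3158 in RBE cells. In HuH-28 it was 121 and 128 with LKB1 siRNA against 72.3 and 85.9 with control siRNA. The siRNA groups were apart in every line, with the higher group being LKB1 siRNA in HuH-28 and SSP-25 and control siRNA in RBE cells. The rise in SSP-25 cells was 6.17-fold (log2 fold change 2.62, standard error 0.08, adjusted p = 4.58e-08), the rise in HuH-28 cells 1.58-fold (0.66, adjusted p = 3.34e-04), and in RBE cells the signal fell to 0.319 of that with control siRNA (-1.65, adjusted p = 5.15e-07). KRT81 was the only one of the 10 with a change above 1 on the log2 scale that passed, in RBE and in SSP-25 cells (2.33% of all genes fell as far in RBE and 6.11% rose as far in SSP-25 cells). The F test of a difference between lines had an adjusted p of 7.00e-07.

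After LKB1 siRNA, RBE and SSP-25 stood at nearly one level of KRT81. The log2 difference of RBE minus SSP-25 was -0.10 (95% confidence interval -0.28 to 0.09, adjusted p = 0.32) in LKB1 siRNA libraries and 4.18 (3.99 to 4.36, adjusted p = 7.00e-11) in control siRNA libraries. For KRT8 the difference was 0.14 (-0.07 to 0.34, adjusted p = 0.21) in LKB1 siRNA libraries and 1.12 (0.91 to 1.33) in control siRNA libraries. HuH-28 remained below RBE in KRT81, with log2 differences of -3.10 in LKB1 siRNA libraries and -5.40 in control siRNA libraries.

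The hair keratins that neighbor KRT81 on chromosome 12 had the same signs in RBE and SSP-25. KRT86 signal was 327 and 295 with LKB1 siRNA against 58.0 and 57.5 with control siRNA in SSP-25 cells, and 349 and 339.8 against 784 and 700.5 in RBE cells. KRT83 was 244 and 211 with LKB1 siRNA against 33.7 and 40.2 with control siRNA in SSP-25 cells, and 208 and 187 against 712 and 576 in RBE cells. Both were thus higher in each LKB1 siRNA library of SSP-25 and lower in each of RBE. Log2 fold changes in SSP-25 cells were 2.42 for KRT86, 2.61 for KRT83, 2.70 for KRT85, 2.89 for KRT84 and 3.03 for KRT82, all of which passed. In RBE they were -1.10, -1.70, -1.24, -1.25 and -1.21, and all but KRT84 (adjusted p = 0.052) passed. In HuH-28 only KRT86 passed (0.54, adjusted p = 8.58e-04). The F test passed for all 5, with adjusted p of 1.56e-06 (KRT86) to 0.0042 (KRT84).

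The neighbors share sequence with KRT81 and with each other to different extents. KRT86 shared 44.4% of its windows with any other annotated gene, KRT83 20.5%, KRT85 11.8%, KRT84 5.5% and KRT82 1.2%. With KRT81 itself the shares were 35.4%, 12.3%, 7.2%, 1.0% and 1.1% in the same order. The signal of KRT83 was 0.149 to 0.240 of that of KRT81 over the 12 libraries, that of KRT85 0.0319 to 0.0665, that of KRT84 0.00827 to 0.0370, that of KRT82 0.0123 to 0.0316 and that of KRT86 0.221 to 0.483. KRT81 itself was 18.1-fold higher in RBE controls than in SSP-25 controls. KRT86 was at 0.320 and 0.325 of KRT81 in RBE with LKB1 siRNA, against 0.221 and 0.222 in RBE controls. Whether reads of KRT81 were counted in its neighbors was not tested. By Pearson correlation of log2(signal + 0.5) over the 12 libraries, given as a description, the 3 genes most like KRT81 among 12229 with a mean signal of at least 20 were KRT86 (0.9958), KRT83 (0.9955) and KRT85 (0.9926).

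**Figure D5:**
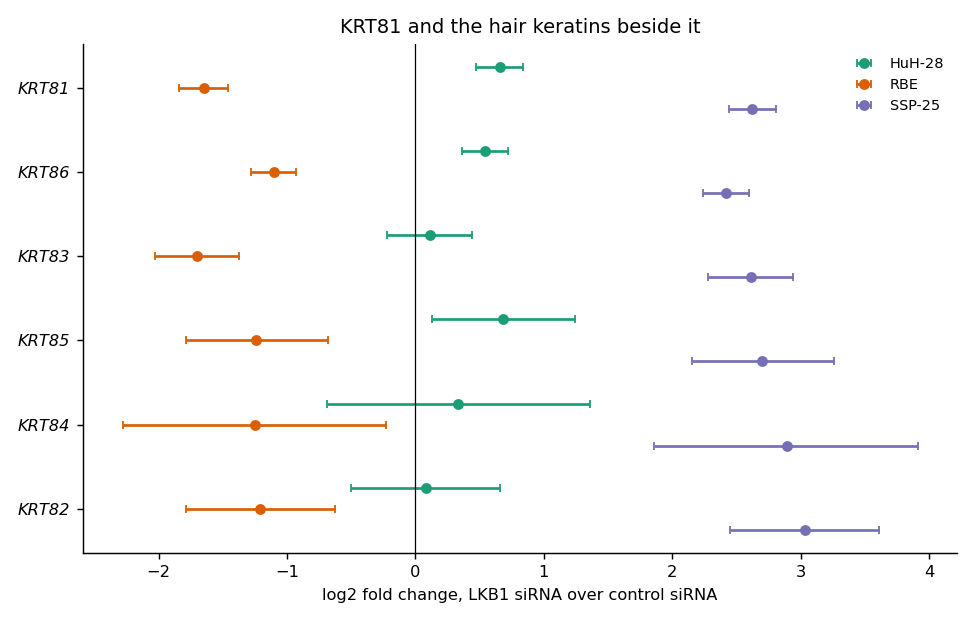
Log2 fold change of LKB1 siRNA over control siRNA (x axis) of KRT81 and 5 hair keratins near it, by line, with 95% confidence intervals from limma. All 6 genes lie above 1 in SSP-25 and below 0 in RBE cells, and those of HuH-28 lie between.

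KRT8 and KRT18 moved together and in opposite directions in RBE and the other lines. KRT8 signal was 3892 and 3968 with LKB1 siRNA against 2499 and 2861 with control siRNA in HuH-28 cells, 8552 and 8414 against 14529 and 12590.0 in RBE cells, and 7262 and 8199 against 5972 and 6465 in SSP-25 cells. The groups did not overlap in any line. The log2 fold changes were 0.56 in HuH-28 cells (adjusted p = 0.0017), -0.67 in RBE cells (adjusted p = 2.91e-04) and 0.31 in SSP-25 cells (adjusted p = 0.022), with a standard error of 0.09 in each. The rise in SSP-25 cells was lost without control replicate 1 (0.26, adjusted p = 0.14) or LKB1 siRNA replicate 2 (0.23, adjusted p = 0.16). KRT18 signal was 5717 and 6553 with LKB1 siRNA against 4272 and 4878 with control siRNA in HuH-28 cells, 5272 and 5039 against 7931 and 7705 in RBE cells, and 2455 and 2217 against 1701 and 1802 in SSP-25 cells. These are log2 fold changes of 0.42 (adjusted p = 0.0049), -0.60 (adjusted p = 3.81e-04) and 0.41 (adjusted p = 0.0036), again without overlap between groups. The F test had adjusted p of 4.68e-04 for KRT8 and 5.47e-04 for KRT18. KRT8 signal per unit of KRT18 was 0.681 and 0.605 with LKB1 siRNA against 0.585 and 0.586 with control siRNA in HuH-28 cells, and overlapped between the siRNA groups in RBE and SSP-25. Neither keratin passed on average (0.07 and 0.08 on the log2 scale).

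Of the biliary keratins, KRT7 rose in SSP-25 and HuH-28 cells. KRT7 signal was 8651 and 8983 with LKB1 siRNA against 6048 and 5759 with control siRNA in SSP-25 cells, and 3019.9 and 2876 against 2467 and 2406 in HuH-28 cells. In RBE, where KRT7 was highest, it was 14238 and 14661 with LKB1 siRNA against 14978 and 14456 with control siRNA, and the groups overlapped. The log2 fold change was 0.58 in SSP-25 cells (standard error 0.06, adjusted p = 3.05e-05), 0.27 in HuH-28 cells (adjusted p = 0.0051) and -0.03 in RBE cells, where the 95% confidence interval of -0.15 to 0.10 leaves out a change of the size seen in SSP-25 cells. The F test had an adjusted p of 0.0018. KRT7 rose on average over the lines (0.28, adjusted p = 5.73e-05), by 0.12 (adjusted p = 0.062) without SSP-25.

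KRT19 passed in none of the lines in this fit. Its signal was 11.5 and 17.3 with LKB1 siRNA against 9.86 and 11.0 with control siRNA in HuH-28 cells, 9931 and 9489 against 11826 and 11079.8 in RBE cells, and 1232 and 1137 against 964 and 916 in SSP-25 cells. LKB1 siRNA libraries were above controls in HuH-28 and SSP-25 and below them in RBE cells, without overlap. The log2 fold changes were 0.42 (adjusted p = 0.053), -0.24 (adjusted p = 0.23) and 0.33 (adjusted p = 0.094), and the F test had an adjusted p of 0.061. The spread of the low HuH-28 signals entered these tests for all lines. Without HuH-28 LKB1 siRNA replicate 1 the adjusted p was 5.20e-04 in HuH-28 cells, 0.019 in RBE cells, 0.0037 in SSP-25 and 0.0012 for the F test, and without replicate 2 of that group it was 0.019 in RBE cells, 0.0037 in SSP-25 and 0.0077 for the F test. In SSP-25 the difference also passed with a pseudocount of 10 (0.019), quantile normalization (0.031), upper quartile scaling (0.045) and the line fitted alone (9.50e-04), and in RBE with that line fitted alone (0.0061). With a replicate block within each line the adjusted p of KRT19 was 0.010 in HuH-28, 0.019 in SSP-25, 0.025 on average and 0.013 for the F test.

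KRT80 and KRT17 rose in every line, KRT17 in SSP-25 close to the threshold. KRT80 signal was 1313 and 1186 with LKB1 siRNA against 1033 and 939 with control siRNA in HuH-28 cells, 4449.8 and 4459 against 3701 and 3574 in RBE cells, and 1524 and 1582 against 913 and 829.8 in SSP-25 cells. All LKB1 siRNA libraries were above the controls of their line. The log2 fold change was 0.84 in SSP-25 cells (standard error 0.07, adjusted p = 1.10e-05), larger than 0.34 in HuH-28 and 0.29 in RBE cells (F test, adjusted p = 0.0054). In RBE the rise was at an adjusted p of 0.052 without control replicate 2. KRT17 was 4409.7 and 4519 with LKB1 siRNA against 2790 and 2889 with control siRNA in HuH-28 cells, 13.2 and 12.5 against 6.88 and 9.33 in RBE cells, and 15.0 and 21.0 against 13.8 and 11.5 in SSP-25 cells. Although KRT17 in HuH-28 controls was 333-fold its level in RBE controls and 217-fold that in SSP-25 controls, the log2 fold changes were 0.65 in HuH-28 cells (95% confidence interval 0.27 to 1.04, adjusted p = 0.017), 0.65 in RBE cells (0.26 to 1.03, adjusted p = 0.013) and 0.48 in SSP-25 cells (0.09 to 0.86, adjusted p = 0.048). The F test found no difference between lines past the threshold (adjusted p = 0.80).

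The KRT17 call in single lines depended on single libraries and on the processing. In HuH-28 it was lost without any of the 4 libraries of that line (log2 fold changes of 0.63 to 0.68). The spread of the low RBE and SSP-25 signals entered the test in HuH-28, and KRT17 still passed with HuH-28 fitted alone. In RBE it was lost without control replicate 1 (log2 fold change 0.44) or without LKB1 siRNA replicate 1 (log2 fold change 0.60). With all libraries kept, the RBE call was lost after quantile normalization (0.42, adjusted p = 0.081), and likewise with the line fitted alone (adjusted p = 0.050). In SSP-25 it was lost on leaving out 9 of the 12 libraries (adjusted p of 0.054 to 0.34), after quantile normalization (0.25, adjusted p = 0.29), with a pseudocount of 0.1 (0.055), no filter on low values (0.054), no trend (0.076), a replicate block within each line (0.076) and the line fitted alone (0.10). Averaged over the lines, KRT17 rose by 0.59 (adjusted p = 6.23e-04) and KRT80 by 0.49 (adjusted p = 4.32e-06). A two-sided exact permutation of the siRNA labels within lines gave 0.0093 for both, the smallest p that its arrangements allow, and 0.019 for KRT15, 0.046 for KRT7, 0.083 for KRT23, 0.25 for KRT19, 0.31 for KRT5, 0.40 for KRT81, 0.64 for KRT18 and 0.70 for KRT8. These p-values are not adjusted.

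KRT15 rose in HuH-28 cells. Its signal was 88.3 and 115 with LKB1 siRNA against 55.7 and 63.9 with control siRNA there (log2 fold change 0.75, adjusted p = 0.0010). In RBE it was 306 and 308 with LKB1 siRNA against 301 and 306 with control siRNA (0.02, adjusted p = 0.96), and in SSP-25 cells 308 and 279.9 against 243 and 238 (0.29, adjusted p = 0.070). The difference in SSP-25 passed with upper quartile scaling (0.37, adjusted p = 0.029). As separate settings, it also passed with the line fitted alone (adjusted p = 0.0063) and with a replicate block within each line (adjusted p = 0.010). The difference between lines had an adjusted p of 0.021 and was lost without HuH-28 control replicate 1 (0.060) or any 1 of the RBE libraries (0.051 to 0.057). The low keratins KRT5 and KRT23 passed in no line. For KRT5 in SSP-25 cells the log2 fold change of 1.82 (adjusted p = 0.27) was 4.33 (adjusted p = 0.0011) without control replicate 1 and -0.69 (adjusted p = 0.44) without control replicate 2, so that a single library set its sign.

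Among the other keratins, KRT10, a type I keratin of differentiating epidermis, rose in HuH-28 cells (0.43), RBE (0.29) and SSP-25 (0.22), with adjusted p of 1.36e-04 to 0.0043. KRT14 was 215 and 219 with LKB1 siRNA against 108 and 76.9 with control siRNA in HuH-28 cells (1.24, adjusted p = 0.11). KRT16 was 103 and 99.4 with LKB1 siRNA against 64.2 and 53.7 with control siRNA there (0.78, adjusted p = 0.39). In both genes the groups of HuH-28 were apart, but neither passed. The spread of their low signals in RBE and SSP-25 cells entered these tests. KRT34 rose in HuH-28 cells (1.32, adjusted p = 0.043), and KRT33B did not pass in any line. Of all 37 keratins tested, 15 rose and 0 fell in HuH-28 cells, 4 rose and 7 fell in RBE cells, and 16 rose and 0 fell in SSP-25 cells. Of all genes tested, 14.3% rose and 15.5% fell in HuH-28 cells, 22.1% and 18.6% in RBE cells, and 21.1% and 21.1% in SSP-25 cells. Of 20 type II keratins, 13 rose in SSP-25 and 6 fell in RBE cells, and the hair keratins above are part of both counts. The SSP-25 count also holds KRT6A and KRT6B, and KRT6A shares 34.2% of its 40-base windows with KRT6B. Genes that share reads are not separate evidence in these counts.

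Genes that link or accompany keratin filaments moved in both directions. Of 21 such genes (plakins, desmosomal plaque proteins, lamins and other intermediate filaments), 3 rose and 4 fell in HuH-28 cells, 6 rose and 5 fell in RBE cells, and 8 rose and 7 fell in SSP-25 cells. In HuH-28 these counts were near the 14.3% and 15.5% of all genes that rose and fell there, and the shares of all genes were 22.1% and 18.6% in RBE cells and 21.1% and 21.1% in SSP-25 cells. VIM, the vimentin of mesenchymal filaments, averaged 27373 ± 621 with LKB1 siRNA against 46039 ± 1128 with control siRNA in RBE and 37777 ± 111 against 57502 ± 632 in SSP-25 cells, where it fell (-0.75 and -0.61). In HuH-28 VIM was 19691 ± 669 with LKB1 siRNA against 22949 ± 491 with control siRNA (-0.22, adjusted p = 0.063). The B-type lamin genes of the nuclear envelope moved apart in all lines, with LMNB2 higher by 0.84, 0.80 and 0.71 in HuH-28 cells, RBE and SSP-25 and LMNB1 lower (-0.52, -0.83 and -0.48). LMNA fell in RBE (-0.60) and SSP-25 (-0.50), and was at -0.02 in HuH-28 (adjusted p = 0.87). TCHP, whose product trichoplein binds keratin filaments, fell in all 3 lines (-0.24, -0.39 and -0.57).

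Marker lists were read beside the keratins. Of the 12 biliary markers, which include KRT7 and KRT19, 3 rose and 1 fell in HuH-28 cells, 2 rose and 1 fell in RBE cells, and 5 rose and 1 fell in SSP-25 cells, where the duct transcription factor SOX9 rose by 1.38. For all these lists the shares of all genes tested that rose and fell were 14.3% and 15.5% in HuH-28 cells and 22.1% and 18.6% in RBE cells. They were 21.1% and 21.1% in SSP-25 cells and 27.3% and 25.2% on average. Averaged over the lines AQP1, a water channel of duct cells, rose (1.22). Of 12 mesenchymal markers, 5 rose and 0 fell in HuH-28 cells, 5 rose and 2 fell in RBE cells, 6 rose and 3 fell in SSP-25 cells, and 6 rose and 2 fell on average. Among them FN1 (0.80), CDH2 (0.57), COL1A1 (0.58) and THY1 (1.19) rose on average, and VIM (-0.53) and LUM (-0.50, adjusted p = 0.023) fell. Of 8 basal and squamous markers tested, 3 rose on average, all of them keratins (KRT14, KRT6A and KRT6B). Within lines, KRT14 passed only in RBE, at low signal (2.49 ± 0.962 with LKB1 siRNA against 0.294 ± 0.399 with control siRNA). KRT6A passed in HuH-28 and SSP-25 and KRT6B only in SSP-25. The LKB1 siRNA libraries of SSP-25 were far apart for both (45.18 and 14.94 for KRT6A, 20.05 and 9.15 for KRT6B). Of 8 hepatocyte markers tested, ASGR1 and CYP3A4 rose and TF fell on average, and 0 of 6 leukocyte and endothelial markers passed on average. The part of these lists in the keratin changes was not tested.

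The genes whose levels ran most like those of the biliary keratins and of KRT80 were picked by the same correlation over 12 libraries, in which differences between the lines dominate. For KRT7 they were SH3TC2 (Pearson r = 0.9976), PHGDH, the first enzyme of serine synthesis (0.9961), and MYH15 (0.9935). For KRT19 they were PLEKHA6 (0.9978), the nuclear receptor HNF4G (0.9971) and ULBP1, a ligand of an activating receptor of natural killer cells (0.9970). For KRT80 they were INTS6 (0.9935), KCNH3 (0.9930) and RIMBP3C (0.9927). The levels themselves were unlike, with control means of 92.7, 2002 and 412 for PHGDH in HuH-28 cells, RBE and SSP-25 and 0.00104 in HuH-28 and 17.3 in SSP-25 for HNF4G.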

How the data were processed

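Gene expression was analysed in 12 libraries of 3 cell lines. The values that the authors deposited are a signal per gene and library, namely reads per kilobase that were scaled to make libraries comparable. NextGENe with RefSeq transcripts is described in the study's methods, whereas TopHat 1.2.0, edgeR, hg19 and GRCh37 appear in the submitters' processing notes, and neither source states which pipeline produced these values. Of 18815 rows, 17 that repeat a symbol with its values were left out, 28 hold a date in place of a symbol, and 18 have a symbol used for different values. None of these is a keratin. Samples were grouped by line and siRNA from the labels.

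Values were fitted in limma 3.58.1 (R 4.3.3) after a log2 transform of signal + 0.5, by a model of 6 group means, eBayes with a mean-variance trend, 6 residual degrees of freedom and Benjamini-Hochberg adjustment over 16146 genes. The fit was tested on simulated data. Lines were compared in control siRNA libraries. Exact permutations and correlations used Python 3.11.15 and scipy 1.17.1, and sequences and positions came from GENCODE v29. The 10 keratins are named each, other keratins where their mean signal was at least 10, and from the other lists up to 4 genes with the smallest adjusted p on average. EPCAM, MUC1, LMNA, COL3A1, DCN, LUM, TP63 and KRT6C were named outside this rule, after their values were seen. Some genes that the rule names are not reported here. Members and lists were chosen with earlier results of these data known. Alternatives were other pseudocounts, filters and scalings, a fit without trend, a replicate block, each line alone, LKB1 siRNA libraries for the contrasts of lines, and leaving out each library or line.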

Additional observations from a re-analysis of the deposited data

Results flagged for a closer look

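The response to LKB1 siRNA differed between the lines for 6 of the 10 keratins by limma's F test, with 28.2% of all genes tested past the same threshold. KRT81 had an adjusted p of 7.00e-07, with log2 fold changes of 0.66 in HuH-28 cells, -1.65 in RBE cells and 2.62 in SSP-25 cells. KRT8 (adjusted p = 4.68e-04) and KRT18 (adjusted p = 5.47e-04) fell in RBE and rose in both other lines. For KRT7 (adjusted p = 0.0018) the log2 fold change was 0.58 in SSP-25 and -0.03 in RBE. KRT80 (adjusted p = 0.0054) rose more in SSP-25 than in the other lines, and without SSP-25 the adjusted p was 0.82. KRT15 (adjusted p = 0.021) rose in HuH-28, and this difference was lost without HuH-28 control replicate 1 (0.060) or any 1 of the RBE libraries (0.051 to 0.057). Groups of 2 libraries are too small to look for a library that stands apart from its group.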

How the results depend on the processing

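With each line fitted alone, 4 keratins passed in HuH-28 in place of 7, and genes passed overall were 2407 in place of 4801 there, 8040 in place of 6557 in RBE and 8164 in place of 6813 in SSP-25. The cause was not tested. Without the line RBE, 8 passed on average in place of 5, and the response differed between lines for 2 in place of 6. The average log2 fold change of KRT8 turned to -0.18 without HuH-28, and that of KRT81 to -0.50 without SSP-25. In LKB1 siRNA libraries KRT18 was higher in HuH-28 than in RBE (0.25), KRT80 lower in HuH-28 than in SSP-25 (-0.32), and KRT81 level in RBE and SSP-25 (-0.10), each opposite in sign to the control siRNA libraries. All other counts of keratins passed stayed within 1.5 times their value in every alternative run. Over the single values, leaving out a library kept 897 on their side of the threshold and direction, lost 39 calls, gained 19 and moved 5 values that had no call. The study numbers the libraries as tests 1 and 2, and what a test shared is not stated. Same-numbered libraries of a line deviated together over 12230 genes in HuH-28 (r = 0.431) but not in RBE (0.0023) or SSP-25 (0.0325). With a replicate block over all lines 7 keratins passed in HuH-28 cells, 5 in RBE cells, 6 in SSP-25 cells and 5 on average. With a replicate block within each line they were 8, 5, 7 and 7, with KRT23 also past the threshold on average (0.69, adjusted p = 0.047). Upper quartile scaling moved the genes that passed in SSP-25 to 4157 higher and 2537 lower, against 3403 and 3410 unscaled, and put the median of all genes at -0.1053 for HuH-28 minus RBE and at 0.1421 for RBE minus SSP-25, against 0.0070 and -0.0029 unscaled. Read depth is unknown, and no change of KRT5 or KRT23 was detectable within a line at 2 libraries a group.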
